A study of Homo sapiens and Mus musculus with 56 samples.

Results

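The endoplasmic reticulum (ER) chaperone and unfolded protein response set held 34 genes, and their transcripts were followed in 5 leukaemia cell models treated with an inhibitor of DOT1L, an inhibitor of menin, or both. The genes were chosen by name, through the probe sets annotated to these symbols on the human arrays and to their orthologs on the mouse arrays, and each gene was read on the probe set with the highest mean signal. On the human arrays 33 of the 34 genes were read, of 19775 genes with a probe set of 1 symbol, because the probe set of SYVN1 carries 2 symbols. On the mouse arrays all 34 were read, of 18193 genes. All 33 human and 34 mouse genes passed the filter on dim probe sets in each model, so none was lost to low signal.

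Proteins that enter the ER are folded there with the help of luminal chaperones, lectins and disulfide isomerases, and proteins that fail to fold are returned to the cytosol and degraded. A load of unfolded protein is sensed by 3 membrane proteins: IRE1 (encoded by ERN1), which splices XBP1 mRNA, PERK (encoded by EIF2AK3), which phosphorylates eIF2alpha and thereby raises translation of ATF4, and ATF6, which is cleaved to release a transcription factor. Arrays of this kind report transcript levels only, not the splicing of XBP1, the cleavage of ATF6 or the phosphorylation of PERK. B-lineage cells are known for using this system in their maturation to antibody-secreting cells.

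DOT1L is the methyltransferase of histone H3 lysine 79, and menin is a partner that binds the amino terminus of KMT2A (MLL) and its fusion proteins. RS4;11 and SEM are human B-cell precursor leukaemia lines with a KMT2A-AFF1 fusion, REH is of the same lineage and lacks such a fusion. MOLM-13 is a human myeloid line whose fusion is KMT2A-MLLT3, and the mouse model is a culture of leukaemic cells transformed by MLL-AF9. RS4;11, SEM and REH cells received DMSO, 3 µM EPZ004777 (the DOT1L inhibitor), 10 µM MI-2-2 (the menin inhibitor) or both for 6 days. MOLM-13 and mouse MLL-AF9 cells received DMSO, 3 µM EPZ004777, 3 µM MI-2-2 or both for 4 days. The combination is taken to have used the doses of the single compounds. The labels name no subline or clone, and the mouse cells were kept in interleukin-6, interleukin-3 and stem cell factor. There were 56 arrays in 20 groups of 2 or 3, with 2 arrays for RS4;11 DMSO and for SEM DMSO, MI-2-2 and combination. The 3 treatments of a model were compared with the same DMSO arrays, so their changes are not independent of each other, and their values are set side by side only.

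Values are the authors' log2 signals (RMA), and a change is a difference of mean log2 signals, given with its standard error (SE). A gene was called when the adjusted p of limma's moderated test, adjusted with the Benjamini-Hochberg method over all genes tested in that model, was under 0.05. Apart from HSPA5, XBP1 and Syvn1, array values are printed for called genes picked because their treated arrays did not overlap DMSO. In the comparison that picked a gene, this lack of overlap is therefore no further support. The share of all genes without overlap was not counted. Levels were not compared between probe sets, nor between MOLM-13 and the other human lines, because the array medians were 6.18 to 6.25 in MOLM-13 and 5.54 to 5.66 in the other human lines and the labels do not say which arrays were normalized together. The RNA came from whole cultures, in which fewer cells of a type and less RNA per cell cannot be told apart.

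The lineage labels were checked against marker genes. In RS4;11, SEM and REH, 8, 8 and 7 of 8 B-precursor markers passed the filter, with median percentiles of 95.9, 90.4 and 96.6 of the array. Of 8 myeloid markers 5, 5 and 4 passed there, with median percentiles of 39.4, 31.5 and 29.4, and MPO stood at 82.5 in REH. In MOLM-13 and the mouse cells all 8 and all 7 myeloid markers passed (medians 71.3 and 68.5). Of 8 B-precursor markers 4 and 6 passed in these (medians 30.3 and 32.1), so passing the filter did not by itself separate the lineages. DOT1L and MEN1 transcripts were not called in any human comparison, and in the mouse cells Dot1l fell by 1.00 (adjusted p = 0.00403) under the combination. The compounds act on the proteins, so this is no check of the labels. Some libraries stood apart. The log2 signal of the 3′ minus the 5′ actin control, which rises as RNA fragments, was 1.83 to 1.93 on the SEM MI-2-2 and combination arrays and 2.32 to 2.48 on the other SEM arrays. It was 3.11, 2.75 and 3.65 on REH DMSO replicates 1, 2 and 3 against 2.36 to 2.87 on the treated REH arrays. It was 0.48, 1.12 and 1.99 on the mouse combination replicates 1, 2 and 3 against at most 0.63 on the other mouse arrays. It was 2.09 to 2.52 in RS4;11 and 0.87 to 1.23 in MOLM-13.

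Promoters of the set are shown here because they hold the DNA letters by which this response is known to be recruited. The ER stress response element (ERSE) has CCAAT, 9 bases of any kind and CCACG, and the related ERSE-II has ATTGG, 1 base and CCACG. Both were searched on both strands in the RefSeq promoters (GRCh38.p14) from 250 bases before to 50 bases after the start, in which 30 of the genes had an entry. ERSE letters were present in 6 of 30 (20%) against 0.104% of 22199 protein-coding promoters, and ERSE-II letters in 3 of 30 (10%) against 0.0676%. The set was chosen by name for the response that these elements are known from, so its higher shares are no test. For the set 1 promoter per gene was searched, and for all genes every listed promoter. CCACG by itself was present in 66.7% of the 30 and in 43.1% of all promoters, and CCAAT in 80% and 34.7%. TGATGCAA, a motif of ATF4 dimers, lay in the promoters of HERPUD1 and PPP1R15B (0.676% of all promoters), and TGACGTGG, a motif of ATF6 and XBP1, lay in that of HYOU1 (0.761%), where it overlaps an ERSE-II. Each stretch below is written in the direction of its gene, with the matched letters in capitals, which read CGTGG first where the match is on the other strand. HSP90B1 and HYOU1 each hold 2 matches, of which 1 is shown.
HSPA5, chr9:125241376-125241424, minus strand, ERSE: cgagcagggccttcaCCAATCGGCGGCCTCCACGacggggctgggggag
HSP90B1, chr12:103930201-103930249, plus strand, ERSE: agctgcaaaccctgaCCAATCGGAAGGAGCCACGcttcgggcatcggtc
CRELD2, chr22:49918539-49918587, plus strand, ERSE: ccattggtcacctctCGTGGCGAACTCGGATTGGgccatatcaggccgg
CALR, chr19:12938369-12938417, plus strand, ERSE: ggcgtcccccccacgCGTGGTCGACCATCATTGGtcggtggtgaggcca
CANX, chr5:179698763-179698811, plus strand, ERSE: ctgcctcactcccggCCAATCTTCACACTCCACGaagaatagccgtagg
XBP1, chr22:28800588-28800636, minus strand, ERSE: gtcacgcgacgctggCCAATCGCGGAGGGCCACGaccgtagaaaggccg
HYOU1, chr11:119057365-119057405, minus strand, ERSE-II: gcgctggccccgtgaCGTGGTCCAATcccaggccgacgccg
SDF2L1, chr22:21642099-21642139, plus strand, ERSE-II: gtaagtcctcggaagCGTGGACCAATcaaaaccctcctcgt
HERPUD1, chr16:56932010-56932050, plus strand, ERSE-II: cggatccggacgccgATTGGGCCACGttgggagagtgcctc

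Across the 15 comparisons with DMSO there were 103 calls in the set. The direction differed between comparisons, which differ in model, treatment, dose and duration. There were 14 genes called higher in some comparisons and lower in others. Another 7 were called higher and never lower (CALR, CRELD2, DERL1, DNAJC3, EDEM2, HSP90B1 and SYVN1), 12 lower and never higher (ATF6, CANX, DNAJB9, HYOU1, P4HB, PDIA6, PPP1R15A, SEC61A1, SEC61B, SEL1L, SSR1 and XBP1) and 1, PPP1R15B, was not called in any of them. ERN1 and SDF2L1 were called in all 5 models. Of the 103 calls, 59 were kept whichever array was left out, and 39 under all alternatives tried.

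**Figure D1:**
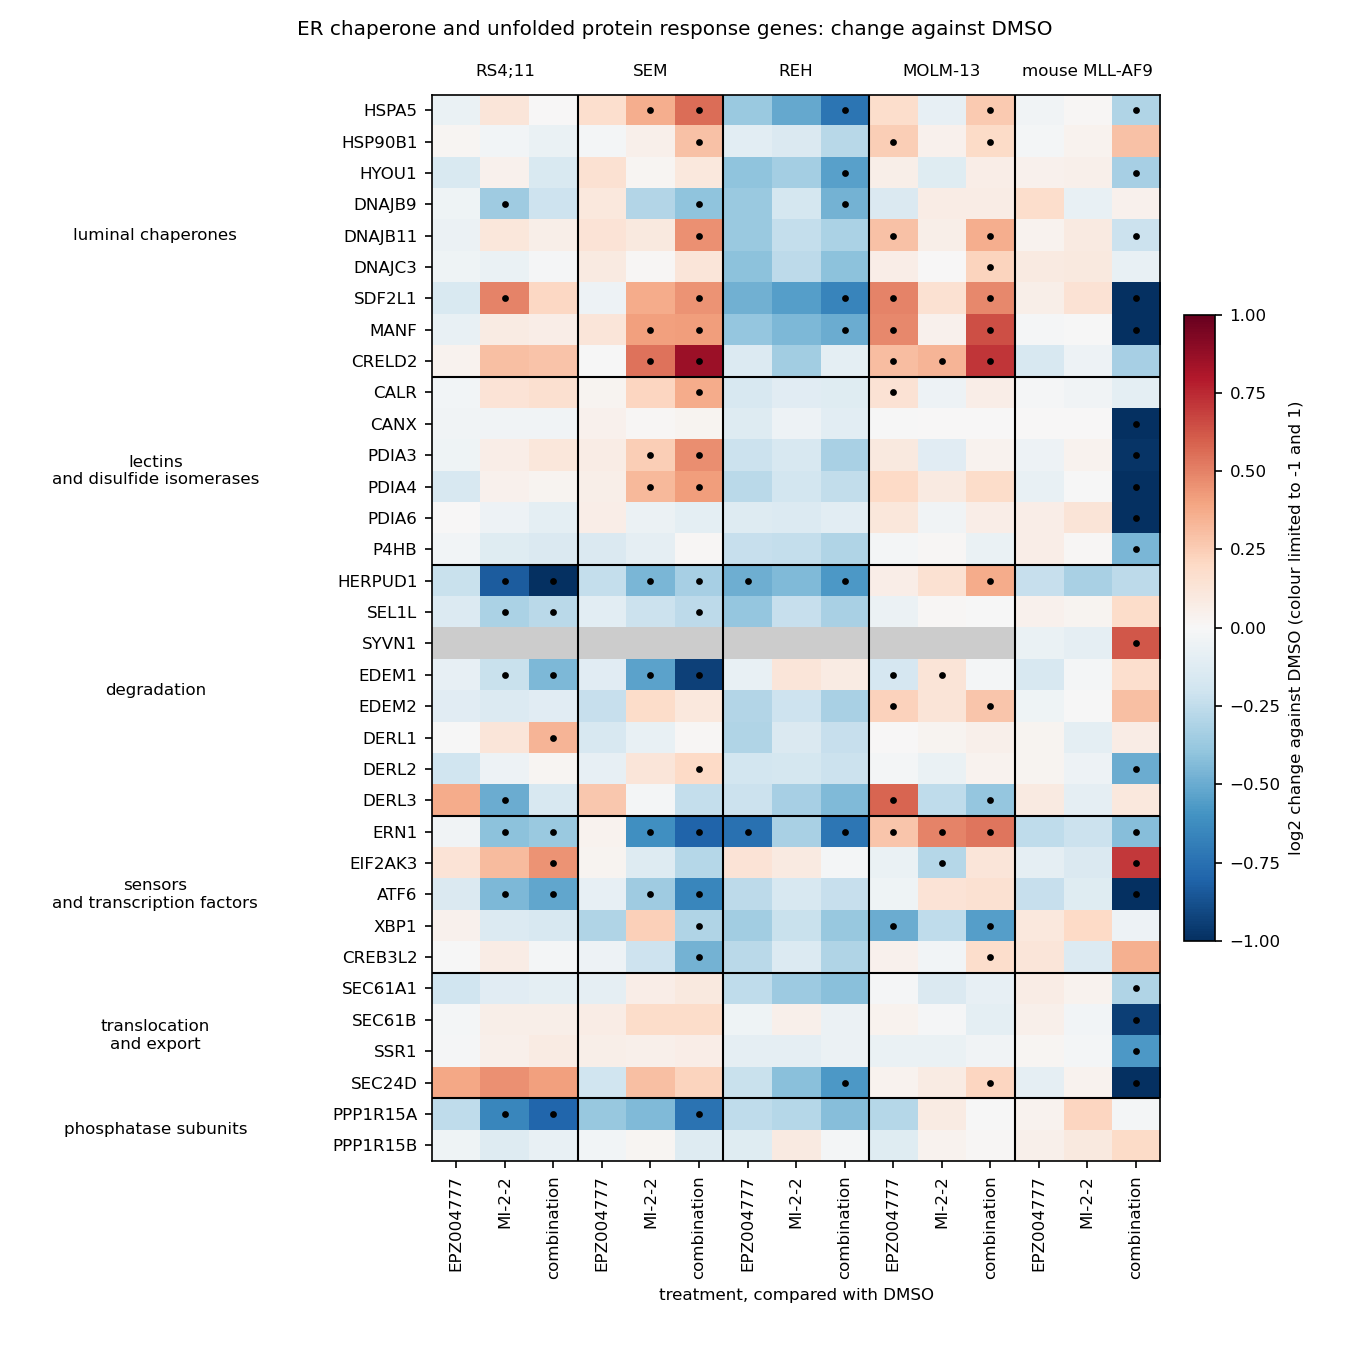
Log2 change against DMSO of each gene (rows, grouped by role, human symbols) in each model and treatment (columns); red is higher, blue is lower, colour is limited to the range from -1 to 1, grey is not read, and a black dot marks an adjusted p under 0.05. Under the combination 6 of 9 luminal chaperones are called higher in SEM and 7 of 9 in MOLM-13, REH is mostly blue, and in the mouse cells all 19 calls lie in the combination column.

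In SEM, chaperones and isomerases were among the genes that rose under MI-2-2 (3 of 9 and 2 of 6) and the combination (6 of 9 and 3 of 6), while degradation genes and sensors were among those that fell under both. Under the combination 10 of 33 genes rose and 9 fell, against 14.3% of all genes tested called higher and 15.2% lower. The median change of the 33 was 0.07, against -0.02 over all genes tested. By role, 6 of 9 luminal chaperones rose and 1 fell (median 0.42), 3 of 6 lectins and isomerases rose (median 0.20), 1 of 7 degradation genes rose and 3 fell (median -0.24), and 4 of 5 sensors and transcription factors fell (median -0.48).

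HSPA5 (BiP, the main luminal chaperone of the Hsp70 family) read 11.21 and 11.15 on the SEM DMSO arrays, 11.49, 11.22 and 11.34 under EPZ004777, 11.51 and 11.58 under MI-2-2, and 11.67 and 11.81 under the combination. Both combination arrays lay above all others, and the change against DMSO was 0.56 (SE 0.10, adjusted p = 0.00441). CRELD2, a cysteine-rich ER protein induced by stress, read 8.05 and 7.92 under DMSO, 8.16, 7.87 and 7.92 under EPZ004777, 8.59 and 8.48 under MI-2-2, and 8.93 and 8.74 under the combination. Its change was 0.54 (SE 0.12) under MI-2-2 and 0.85 (SE 0.12, adjusted p = 0.0012) under the combination, and MI-2-2 and combination arrays did not overlap those of DMSO and EPZ004777. The other chaperones that rose under the combination were DNAJB11, a co-chaperone of HSPA5 (0.46), SDF2L1, which works with it (0.45), MANF, a small stress-induced ER protein (0.42), and HSP90B1, the Hsp90 of the ER (0.29). Among the lectins and isomerases, PDIA3 and PDIA4, disulfide isomerases, rose by 0.46 and 0.42, and CALR (calreticulin) by 0.37. The lectin CANX (calnexin) was not called, at 0.03.

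EDEM1, which directs misfolded glycoproteins to degradation, read 12.33 and 12.30 on the SEM DMSO arrays, 12.19, 12.25 and 12.16 under EPZ004777, 11.72 and 11.83 under MI-2-2, and 11.47 and 11.29 under the combination. It fell by 0.54 (SE 0.08) under MI-2-2 and by 0.94 (SE 0.08, adjusted p = 0.000118) under the combination. ERN1 read 9.04 and 9.31 under DMSO, 9.23, 9.23 and 9.17 under EPZ004777, 8.56 and 8.58 under MI-2-2, and 8.37 and 8.38 under the combination. The MI-2-2 and combination arrays of both genes lay below every DMSO and EPZ004777 array, and ERN1 fell by 0.61 (SE 0.09) and 0.80 (SE 0.09, adjusted p = 0.000471). The combination also lowered PPP1R15A, the stress-induced subunit that brings a phosphatase to eIF2alpha (-0.74), ATF6 (-0.65), CREB3L2, a membrane-bound transcription factor (-0.48), DNAJB9, a co-chaperone (-0.41), and the degradation genes HERPUD1 (-0.33) and SEL1L (-0.26). DERL2, of the derlin family of degradation genes, rose by 0.20.

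XBP1 in SEM did not follow 1 direction across treatments. It read 10.30 and 10.29 under DMSO, 9.99, 10.01 and 10.00 under EPZ004777, 10.52 and 10.55 under MI-2-2, and 9.86 and 10.12 under the combination. The change was -0.30 (adjusted p = 0.0639) under EPZ004777 and 0.24 (adjusted p = 0.112) under MI-2-2, neither called. Under the combination XBP1 fell by 0.30 (SE 0.09, adjusted p = 0.0365), and against MI-2-2 by 0.54 (SE 0.09, adjusted p = 0.0145). The direction against DMSO turned with the mean of all its probe sets (0.067, adjusted p = 0.743) and with the actin value as a covariate (0.28, adjusted p = 0.932). The genes with ERSE letters moved both ways here: HSPA5, HSP90B1, CRELD2 and CALR rose, XBP1 fell on the probe set used and CANX was at 0.03, and of those with ERSE-II letters SDF2L1 rose, HERPUD1 fell and HYOU1 was not called.

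Under MI-2-2 alone 5 of the 33 genes rose in SEM (CRELD2, MANF 0.41, HSPA5 0.37, PDIA4 0.32 and PDIA3 0.25) and 4 fell (ERN1, EDEM1, HERPUD1 -0.46 and ATF6 -0.36), against 9.32% of all genes higher and 8.47% lower. The median change was 0.02 against 0.01 over all genes. EPZ004777 gave no call in either direction, against 4.55% and 4.12% of all genes. Of the 33 genes 5 had an unadjusted p under 0.05, as did 3562 of all 13967 tested. EPZ004777 gave 1 call without combination replicate 1 or 3. The combination exceeded EPZ004777 in 12 genes and was lower in 6 (15.4% and 11.5% of all genes), with CRELD2 at 0.86, ERN1 at -0.83 and EDEM1 at -0.82. Against MI-2-2 only DNAJB11 was higher (0.355) and EDEM1 (-0.40) and XBP1 were lower (2.79% and 1.93% of all genes).

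The SEM counts rest on few arrays. Counts with an array left out, here and for the other models, need not be of the genes called with all arrays. The count of 19 under the combination became 12 without combination replicate 1 or 3, and 10 or 11 without DMSO replicate 2 or 3. The count of 9 under MI-2-2 became 2, 5, 2 and 2 without MI-2-2 replicate 1, MI-2-2 replicate 3, DMSO replicate 2 and DMSO replicate 3. For the combination against EPZ004777, the count of 18 became 11 without combination replicate 3. For the combination against MI-2-2, the count of 3 became 1 without combination replicate 3, and 0 without combination replicate 1, MI-2-2 replicate 1 or MI-2-2 replicate 3. The replicate numbers are those of the labels. The actin values separated the MI-2-2 and combination arrays from the rest with no overlap, and with them as a covariate no gene of the set was called under MI-2-2 or the combination, where 0 and 14 of all genes were called. Myeloid markers moved too: 4 of the 5 that passed rose under the combination (LYZ by 6.33), and their summed log2 level was 9.20 to 9.29 under DMSO, 10.89 to 10.92 under MI-2-2 and 12.04 to 12.14 under the combination. Among plasma cell markers 4 of 6 rose (JCHAIN 3.27) and 2 fell, with a summed level of 11.49 to 11.54 under DMSO and 11.36 to 11.55 under the combination. Their part in the changes of the set was not tested.

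**Figure D2:**
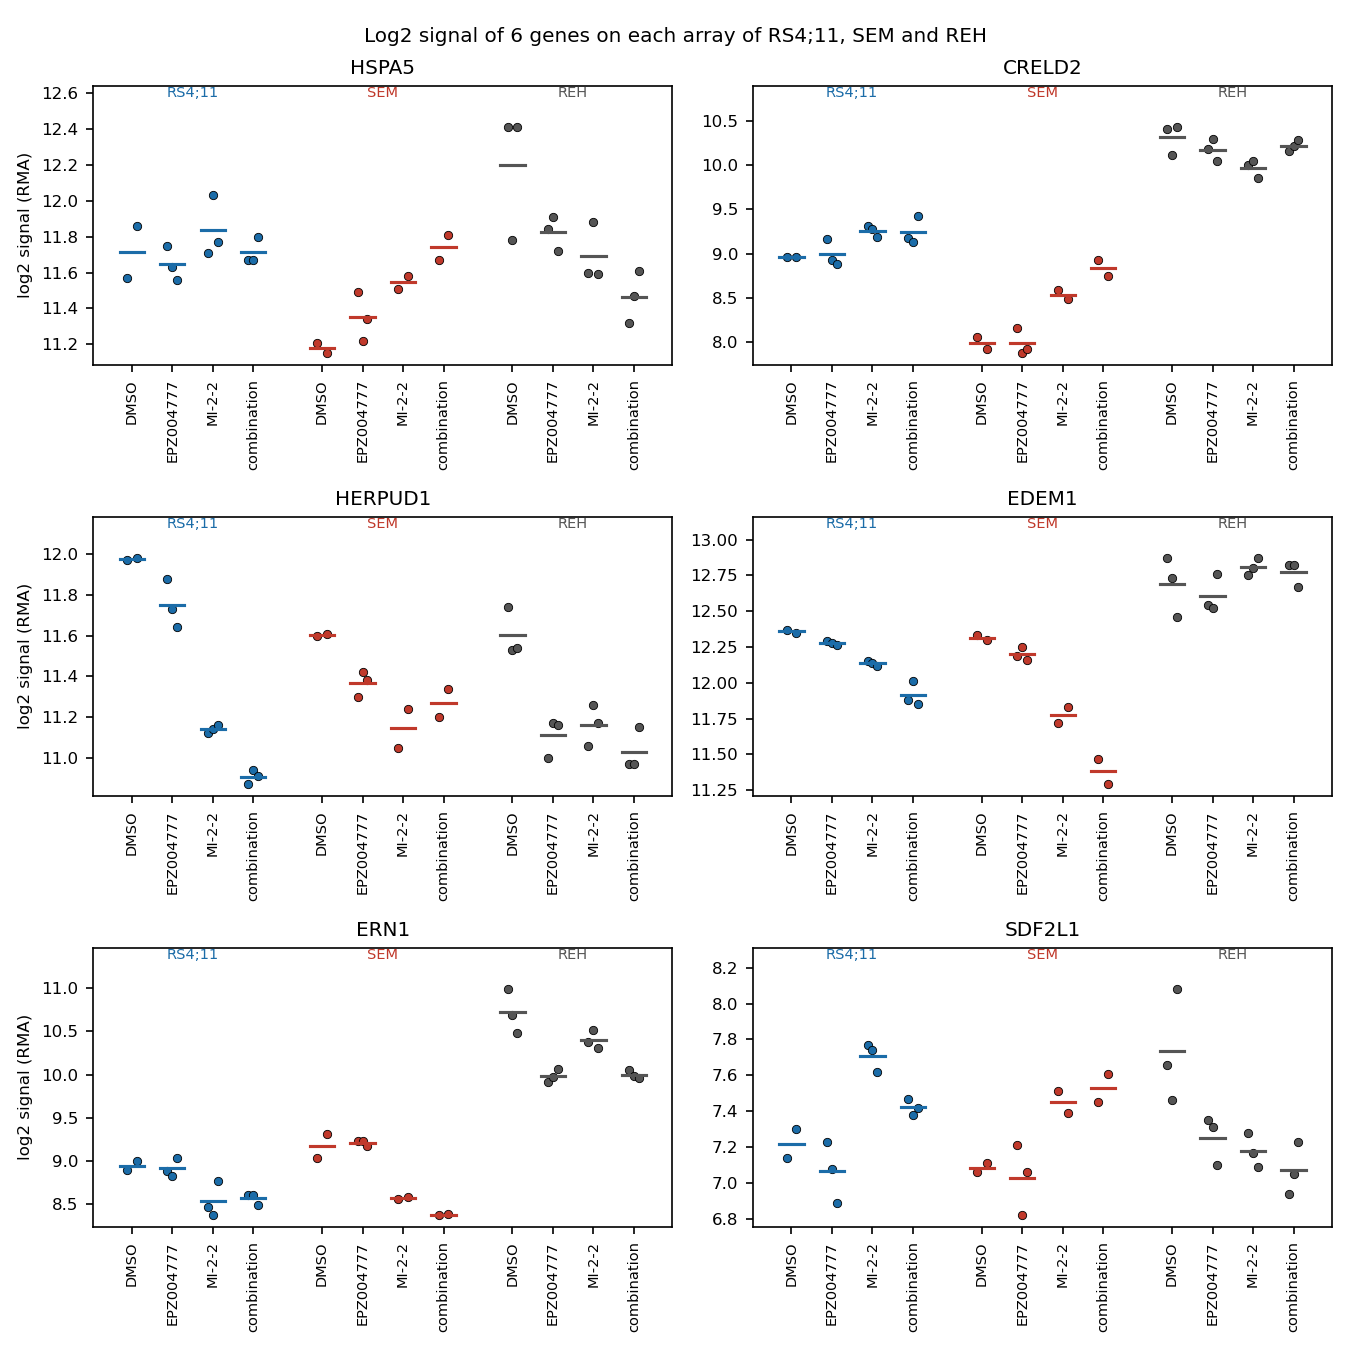
Log2 signal of 6 genes on each array of RS4;11 (blue), SEM (red) and REH (grey) by treatment; points are arrays and lines are group means. HSPA5 and CRELD2 step up in SEM from DMSO to the combination, HERPUD1 steps down in RS4;11 (11.97 and 11.98 to between 10.87 and 10.94), and REH DMSO arrays hold the highest REH values of HSPA5 (12.41).

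RS4;11, which carries the same kind of fusion, had lower calls among degradation genes and for ATF6, and no luminal chaperone was called under the combination. Under the combination 2 of 33 genes rose and 6 fell, against 11.2% of all genes higher and 12.4% lower, with a median change of -0.04 in the set and over all genes. In either direction 24.2% of the set and 23.7% of all genes were called, so nothing particular to the set is read from that count. Under MI-2-2 1 rose and 8 fell (5.89% and 6.84% of all genes; medians -0.04 and -0.03). By role, 4 of 7 degradation genes fell under MI-2-2 (median -0.22), and 3 fell and 1 rose under the combination (median -0.16). Of the 9 luminal chaperones 1 rose and 1 fell under MI-2-2 (median 0.08), and none was called under the combination (median 0.00).

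HERPUD1, a ubiquitin-like ER membrane protein that helps assemble the degradation machinery, changed most in RS4;11. It read 11.97 and 11.98 under DMSO, 11.88, 11.73 and 11.64 under EPZ004777, 11.12, 11.14 and 11.16 under MI-2-2, and 10.87, 10.94 and 10.91 under the combination. The 4 groups did not overlap, and HERPUD1 fell by 0.83 (SE 0.07, adjusted p = 4.32e-05) under MI-2-2 and by 1.07 (SE 0.07, adjusted p = 1.91e-06) under the combination. PPP1R15A read 6.47 and 6.50 under DMSO, 6.20, 6.32 and 6.17 under EPZ004777, 5.91, 5.92 and 5.68 under MI-2-2, and 5.52, 5.64 and 5.92 under the combination. All MI-2-2 and combination arrays lay below the others, with changes of -0.65 (SE 0.12, adjusted p = 0.00438) and -0.79 (SE 0.12, adjusted p = 0.000592). ATF6 read 8.96 and 9.05 under DMSO, 8.83, 8.94 and 8.82 under EPZ004777, 8.52, 8.58 and 8.58 under MI-2-2, and 8.46, 8.67 and 8.33 under the combination. It fell by 0.45 (SE 0.09) and 0.52 (SE 0.09, adjusted p = 0.00214).

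EDEM1 fell by 0.22 and 0.45 in RS4;11 under MI-2-2 and the combination, ERN1 by 0.41 and 0.37 and SEL1L by 0.31 and 0.27, and DNAJB9 (-0.36) and DERL3 (-0.49) were called lower under MI-2-2. Under the combination DERL1, a membrane protein of the degradation channel, rose by 0.34 and EIF2AK3 by 0.45. SDF2L1 rose under MI-2-2, from 7.14 and 7.30 under DMSO to 7.77, 7.74 and 7.62 (0.50, SE 0.10, adjusted p = 0.00798), and read 7.23, 7.08 and 6.89 under EPZ004777 and 7.47, 7.38 and 7.42 under the combination. HSPA5 read 11.57 and 11.86 under DMSO, 11.75, 11.63 and 11.56 under EPZ004777, 11.71, 12.03 and 11.77 under MI-2-2, and 11.67, 11.67 and 11.80 under the combination. These ranges overlap, and its change under the combination was 0.00 (SE 0.11). With the mean of all its probe sets HSPA5 was called lower there (-0.28, SE 0.07, adjusted p = 0.0132). XBP1 read 10.74 and 10.72 under DMSO, 10.97, 10.83 and 10.54 under EPZ004777, 10.62, 10.58 and 10.59 under MI-2-2, and 10.55, 10.73 and 10.43 under the combination, and its changes of 0.05, -0.14 and -0.16 were not called.

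EPZ004777 alone gave no call among the 33 genes of RS4;11, against 4.51% of all genes higher and 2.08% lower. Of the 33 genes 6 had an unadjusted p under 0.05, as did 3006 of all 13867 tested. Without combination replicate 3 or EPZ004777 replicate 1 this compound gave 1 call. The combination exceeded EPZ004777 in 5 genes and was lower in 6 (10% and 9.56% of all genes), led by HERPUD1 (-0.84), DERL3 (-0.54) and PPP1R15A (-0.53). Against MI-2-2 none was higher and HERPUD1 (-0.23) and EDEM1 (-0.23) were lower (6.76% and 3.91% of all genes). The count of 9 under MI-2-2 became 5 without MI-2-2 replicate 1, 5 lacking DMSO replicate 2 and 4 lacking DMSO replicate 3, and the count of 8 under the combination became 4 without DMSO replicate 3. Against EPZ004777, the count of 11 became 7 without combination replicate 1 or EPZ004777 replicate 2. Against MI-2-2, the count of 2 became 0 or 1 without any array other than EPZ004777 replicate 1 or 3, and without combination replicate 1 or 3 the 1 call was of another gene, in the higher direction. Plasma cell markers moved in the same arrays: 4 of 6 rose under the combination (JCHAIN 5.24) and 1 fell, and their summed log2 level was 11.41 to 11.46 under DMSO and 11.88 to 12.09 under the combination. For the 8 myeloid markers the sum was 9.28 to 9.38 and 10.09 to 10.18, with 2 of 5 that passed called higher. Their part in the result was not tested.

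In REH, the line without a KMT2A fusion, nearly all genes of the set read lower than DMSO, but the DMSO arrays themselves were spread. The change was below 0 in 32 of 33 genes under EPZ004777, 29 under MI-2-2 and 32 under the combination, with medians of -0.26, -0.21 and -0.32 against -0.02, -0.02 and 0.00 over all genes. Fewer passed the test: 2 fell under EPZ004777, none under MI-2-2 and 8 under the combination, and none rose. In 1 fit over all 44 human arrays, which share 1 spread, 14, 10 and 24 were called lower under EPZ004777, MI-2-2 and the combination. That fit called 1541, 1998 and 2913 of all 15853 genes tested, in either direction. In the fit of REH alone 2.82% of all genes were called higher and 1.13% lower under EPZ004777. These shares were 0.396% and 0.85% under MI-2-2, and 4.1% and 2.93% under the combination. Under MI-2-2, 8 of the 33 had an unadjusted p under 0.05, as did 2623 of all 13888 genes tested. REH DMSO replicate 1 held the highest of the 12 REH values in 25 of 33 genes, replicate 3 in 4 and replicate 2 in 0.

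ERN1 read 10.99, 10.69 and 10.48 on the REH DMSO arrays, 9.91, 9.97 and 10.06 under EPZ004777, 10.38, 10.52 and 10.31 under MI-2-2, and 10.05, 9.98 and 9.96 under the combination. All 6 EPZ004777 and combination arrays lay below all DMSO and MI-2-2 arrays, and ERN1 fell by 0.74 (SE 0.12, adjusted p = 0.0037) and 0.72 (SE 0.12, adjusted p = 0.00305). HERPUD1 read 11.74, 11.53 and 11.54 under DMSO, 11.00, 11.17 and 11.16 under EPZ004777, 11.06, 11.26 and 11.17 under MI-2-2, and 10.97, 10.97 and 11.15 under the combination. Every treated array lay below every DMSO array, and it fell by 0.49 (SE 0.10, adjusted p = 0.0143) under EPZ004777 and 0.57 (SE 0.10) under the combination.

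HSPA5 read 12.41, 11.78 and 12.41 on the REH DMSO arrays, 11.84, 11.91 and 11.72 under EPZ004777, 11.60, 11.88 and 11.59 under MI-2-2, and 11.32, 11.47 and 11.61 under the combination. It fell by 0.73 (SE 0.16, adjusted p = 0.0161) under the combination, and DMSO replicate 2 lay among the EPZ004777 and MI-2-2 arrays. SDF2L1 read 7.66, 7.46 and 8.08 under DMSO, 7.35, 7.31 and 7.10 under EPZ004777, 7.28, 7.17 and 7.09 under MI-2-2, and 6.94, 7.05 and 7.23 under the combination, where it fell by 0.66 (SE 0.14, adjusted p = 0.0163). The other calls under the combination were SEC24D, a cargo adaptor of vesicles that leave the ER (-0.57), HYOU1, a large Hsp70-like chaperone (-0.54), MANF (-0.49) and DNAJB9 (-0.47). XBP1 read 10.80, 10.24 and 10.63 under DMSO, 10.22, 10.10 and 10.28 under EPZ004777, 10.31, 10.35 and 10.33 under MI-2-2, and 10.08, 10.25 and 10.20 under the combination, with changes of -0.35, -0.22 and -0.38 that were not called.

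With DMSO replicates 1 and 3 both left out, 1 gene was called under EPZ004777, none under MI-2-2 and 1 under the combination. That fit rests on 1 DMSO array, which is assumed to vary like the other groups. Without DMSO replicate 2 the counts were 7, 8 and 14, without DMSO replicate 3 they were 8 under EPZ004777 and 1 under MI-2-2, without EPZ004777 replicate 1 there was 1 under EPZ004777, and without combination replicates 1, 2 or 3 there were 3, 4 and 5 under the combination. ERN1 kept its calls in all of these fits. The 2 left-out arrays have the highest actin 3′ minus 5′ values of REH, and the part of RNA quality in the result was not tested. Stromal markers had a summed log2 level of 7.93 to 8.03 under DMSO and 8.44 to 8.69 under the combination, with 1 of the 2 that passed called higher (COL1A1 0.75). Of the 4 myeloid markers that passed 1 fell (LYZ -0.64), and their sums of 10.50 to 11.07 under DMSO and 10.53 to 10.89 under the combination overlapped. None of 4 plasma cell markers was called under the combination, and the part of these markers was not tested. Between the combination and EPZ004777 no gene was called (0.0648% and 0.0432% of all genes were called higher and lower), nor between the combination and MI-2-2 (1.63% and 0.18%). Unadjusted p was under 0.05 in 2 and 3 of 33 genes, and in 1010 and 1155 of all 13888 tested. Without DMSO replicate 1 the comparison with MI-2-2 had 1 call.

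In MOLM-13 luminal chaperones were among the genes that rose under EPZ004777 and the combination, and ERN1 rose under all 3 treatments. XBP1, the transcription factor whose mRNA IRE1 splices, fell under EPZ004777 and the combination. Under the combination 12 of 33 genes rose and 2 fell, against 23.7% of all genes higher and 25.8% lower, with medians of 0.07 in the set and 0.00 over all genes. Under EPZ004777 9 rose and 2 fell (15.3% and 12.5% of all genes; medians 0.04 and 0.03), and under MI-2-2 3 rose and 1 fell (10.2% and 8.36%; medians 0.01 and 0.02). In either direction 42.4% of the set and 49.5% of all genes were called under the combination, and 12.1% and 18.6% under MI-2-2. The set thus had the smaller share in both, and under EPZ004777 the shares were 33.3% and 27.8%. By role, 7 of 9 luminal chaperones rose under the combination (median 0.26), 5 under EPZ004777 (median 0.25) and 1 under MI-2-2 (median 0.05). None of 6 lectins and isomerases was called under the combination (median 0.05).

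CRELD2 read 9.60, 9.94 and 9.77 on the MOLM-13 DMSO arrays, 10.11, 10.17 and 9.96 under EPZ004777, 9.99, 10.21 and 10.13 under MI-2-2, and 10.55, 10.49 and 10.42 under the combination. The combination arrays lay above all others, and CRELD2 rose by 0.31, 0.34 (SE 0.09, adjusted p = 0.026) and 0.72 (SE 0.09, adjusted p = 6.67e-05) under the 3 treatments. MANF read 11.96, 12.23 and 11.87 under DMSO, 12.56, 12.56 and 12.37 under EPZ004777, 12.05, 12.08 and 12.06 under MI-2-2, and 12.64, 12.55 and 12.79 under the combination. It rose by 0.48 (SE 0.09) under EPZ004777 and by 0.65 (SE 0.09, adjusted p = 0.000187) under the combination, and its MI-2-2 arrays lay within the DMSO range. SDF2L1 read 8.13, 8.41 and 8.16 under DMSO, 8.85, 8.81 and 8.53 under EPZ004777, 8.38, 8.50 and 8.28 under MI-2-2, and 8.69, 8.78 and 8.68 under the combination, and rose by 0.50 (SE 0.10, adjusted p = 0.00389) and 0.48 (SE 0.10).

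HSPA5 read 12.91, 12.86 and 12.91 in MOLM-13 under DMSO, 13.10, 13.11 and 12.99 under EPZ004777, 12.65, 12.76 and 13.02 under MI-2-2, and 13.14, 13.07 and 13.24 under the combination, where it rose by 0.26 (SE 0.09, adjusted p = 0.0264). HERPUD1, which fell in the 3 lymphoid lines, rose here by 0.37 (SE 0.05, adjusted p = 0.000124) under the combination. DNAJB11 (0.37), EDEM2 (0.28), DNAJC3 (0.22), SEC24D (0.21), HSP90B1 (0.19) and CREB3L2 (0.18) were also called higher there.

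ERN1 rose in MOLM-13 under all 3 treatments. It read 10.94, 10.77 and 10.90 under DMSO, 11.18, 11.18 and 11.08 under EPZ004777, 11.37, 11.28 and 11.45 under MI-2-2, and 11.46, 11.30 and 11.44 under the combination. Every treated array lay above every DMSO array, with changes of 0.28 (SE 0.07), 0.50 (SE 0.07, adjusted p = 0.000549) and 0.53 (SE 0.07, adjusted p = 6.67e-05). XBP1 read 12.30, 12.31 and 12.51 under DMSO, 11.85, 11.87 and 11.89 under EPZ004777, 12.08, 11.98 and 12.29 under MI-2-2, and 11.78, 11.80 and 11.87 under the combination. It fell by 0.50 (SE 0.08, adjusted p = 0.00103) and 0.55 (SE 0.08, adjusted p = 0.000171) with EPZ004777 and the combination, and its change of -0.25 under MI-2-2 was not called (adjusted p = 0.0521).

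DERL3 and EDEM1 were called in both directions in MOLM-13. DERL3 read 7.89, 7.92 and 7.52 under DMSO, 8.38, 8.43 and 8.27 under EPZ004777, 7.48, 7.58 and 7.51 under MI-2-2, and 7.49, 7.38 and 7.30 under the combination. It rose by 0.58 (SE 0.10, adjusted p = 0.0015) under EPZ004777 and fell by 0.39 (SE 0.10, adjusted p = 0.00738) under the combination, was not called under MI-2-2, and the combination minus EPZ004777 was -0.97 (SE 0.10, adjusted p = 4.54e-05). EDEM1 was called lower under EPZ004777 (-0.17) and higher under MI-2-2 (0.13). EIF2AK3 read 9.45, 9.42 and 9.60 under DMSO, 9.40, 9.44 and 9.43 under EPZ004777, 9.30, 9.08 and 9.25 under MI-2-2, and 9.62, 9.59 and 9.64 under the combination, and fell under MI-2-2 by 0.28 (SE 0.07, adjusted p = 0.0131).

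Against EPZ004777 the MOLM-13 combination was higher in 8 genes and lower in 1 (14.4% and 18.9% of all genes), and against MI-2-2 higher in 10 and lower in 2 (17.9% and 21.7%). CRELD2 was higher in both, by 0.41 and 0.38. Without combination replicates 1 or 3 the count of 9 against EPZ004777 became 4 or 3, and without EPZ004777 replicates 1 or 3 it became 5. Without MI-2-2 replicate 2 the count of 4 under MI-2-2 became 2. Myeloid markers rose in the same arrays, 7 of 8 under the combination (CD14 by 4.74), with a summed log2 level of 15.03 to 15.09 under DMSO and 15.73 to 15.78 under the combination. The sum of plasma cell markers was 9.41 to 9.55 and 10.22 to 10.46, and that of 4 T cell markers, of which CD3D alone passed the filter, 9.29 to 9.63 and 11.15 to 11.37. Their part in the result was not tested.

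**Figure D3:**
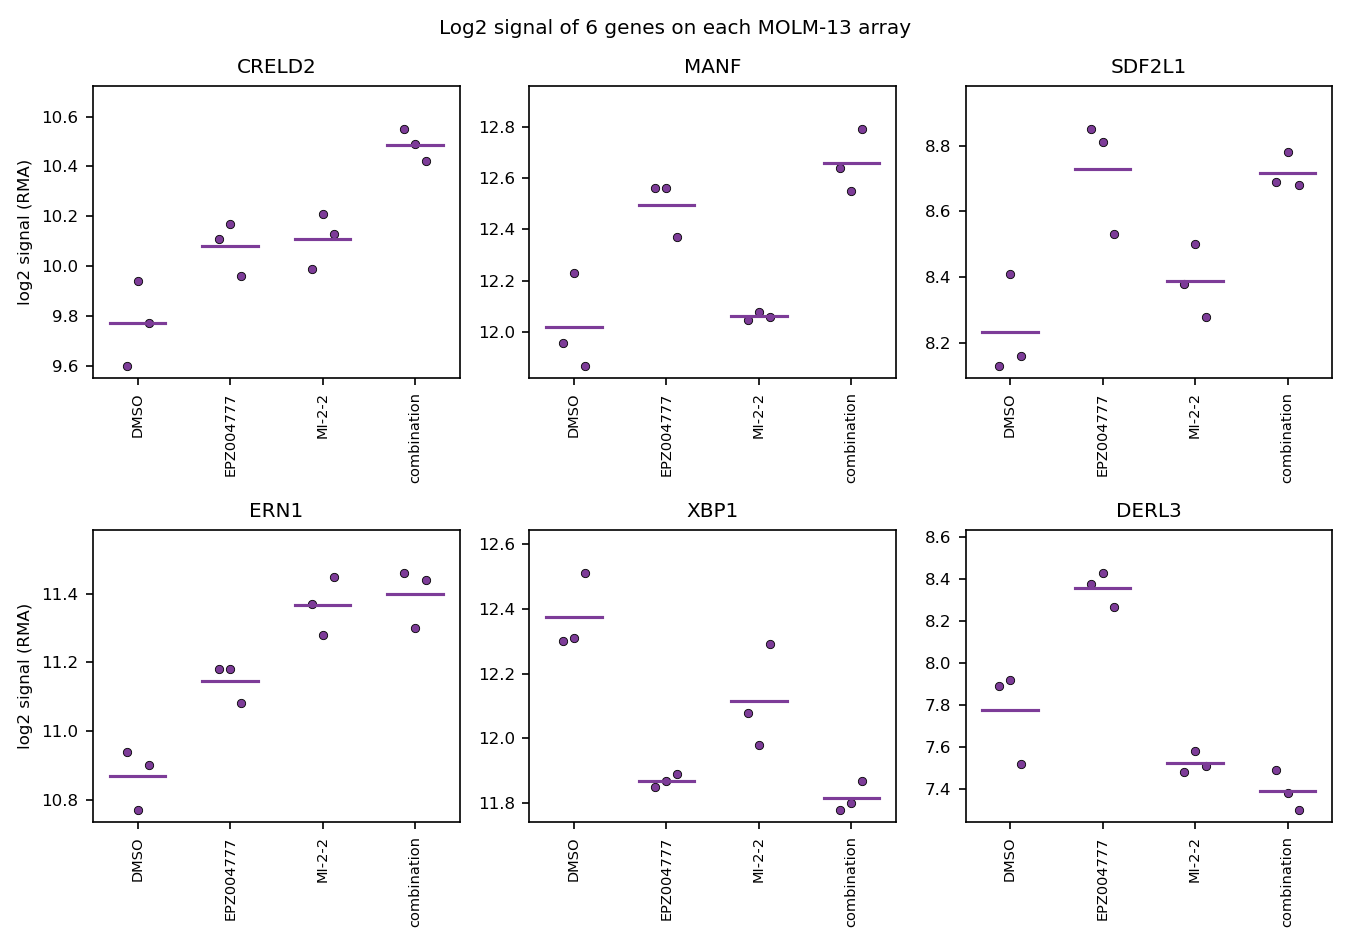
Log2 signal of 6 genes on each MOLM-13 array by treatment; points are arrays, lines are group means, and each panel has its own scale. ERN1 lies higher on every treated array (11.08 to 11.46) than under DMSO (10.77 to 10.94), XBP1 lies lower under EPZ004777 and the combination, and DERL3 is highest under EPZ004777.

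In the mouse MLL-AF9 cells no gene of the set was called under either compound alone, and the combination lowered 17 of 34 and raised 2. Over all genes 28.5% were called higher and 36.2% lower under the combination, 4.22% and 1.38% under EPZ004777, and 3.24% and 2.02% under MI-2-2. Unadjusted p was under 0.05 in 0 and 1 of 34 genes under EPZ004777 and MI-2-2, and in 1912 and 1927 of all 13365 tested. Median changes under the combination were -0.28 in the set and -0.10 over all genes. By role, 5 of 6 lectins and isomerases fell (median -1.07), 4 of 4 translocation and export genes fell (median -0.76), 5 of 9 luminal chaperones fell (median -0.30), and of 8 degradation genes 1 rose and 1 fell (median 0.14).

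Atf6 read 11.85, 11.78 and 11.80 under DMSO, 11.66, 11.58 and 11.50 under EPZ004777, 11.70, 11.66 and 11.70 under MI-2-2, and 10.71, 8.46 and 8.75 under the combination. All combination arrays lay below all others, and Atf6 fell by 2.50 (SE 0.44, adjusted p = 0.000518). Sec24d read 10.95, 10.98 and 10.80 under DMSO, 10.84, 10.88 and 10.74 under EPZ004777, 11.01, 10.94 and 10.89 under MI-2-2, and 9.86, 9.23 and 8.95 under the combination, a change of -1.57 (SE 0.19, adjusted p = 2.81e-05). Canx read 13.47, 13.45 and 13.45 under DMSO, 13.46, 13.46 and 13.47 under EPZ004777, 13.52, 13.41 and 13.46 under MI-2-2, and 13.27, 11.18 and 11.37 under the combination, a change of -1.52 (SE 0.42, adjusted p = 0.0079). In Canx and Atf6 combination replicate 1 lay between the other 2 combination arrays and DMSO.

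Sdf2l1 (-1.49), Pdia6 (-1.39), Pdia4 (-1.16), Manf (-1.12), Pdia3 (-0.98) and Sec61b, a subunit of the translocation channel (-0.94), were the next largest calls in the mouse cells. Ssr1, Derl2, P4hb, Ern1, Hyou1, Hspa5, Sec61a1 and Dnajb11 fell by 0.58 to 0.22. Hspa5 read 13.53, 13.46 and 13.51 under DMSO, 13.46, 13.48 and 13.45 under EPZ004777, 13.55, 13.53 and 13.45 under MI-2-2, and 13.13, 13.22 and 13.26 under the combination (-0.30, SE 0.08, adjusted p = 0.00508). Xbp1 read 12.34, 12.19 and 12.19 under DMSO, 12.27, 12.17 and 12.60 under EPZ004777, 12.40, 12.57 and 12.34 under MI-2-2, and 12.26, 12.12 and 12.19 under the combination, a change of -0.05 that was not called. Eif2ak3 rose by 0.71 (SE 0.13) and Syvn1, the ubiquitin ligase of ER degradation, by 0.62 (SE 0.25, adjusted p = 0.0489). Syvn1 is the called gene whose groups overlap: it read 9.93, 11.01 and 11.12 under the combination and 10.02, 10.15 and 10.03 under DMSO, values named here after they were seen.

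Against EPZ004777 the mouse combination was higher in 3 genes and lower in 16 (28.6% and 34.8% of all genes), and against MI-2-2 also higher in 3 and lower in 16 (28.9% and 33.8%). The 3′ minus 5′ value of the GAPDH control, like that of actin, was higher on combination replicates 2 and 3: it was 0.60, 1.504 and 2.05 on replicates 1, 2 and 3, and at most 0.65 on the other mouse arrays. Under the combination 55.9% of the 34 genes were called against DMSO in either direction, a smaller share than the 64.7% of all genes. With combination replicates 2 and 3 both left out, the fit rests on combination replicate 1. That array is then assumed to vary like the other groups, so no count under the combination is read from it. Without combination replicate 1 each single compound had 1 call. Of the marker lists, 5 of 7 myeloid markers rose (Csf3r by 4.80), with a summed log2 level of 14.16 to 14.63 under DMSO and 15.29 to 15.50 under the combination. Plasma cell markers had a sum of 11.00 to 11.29 and 8.24 to 9.29 (Sdc1 -4.98), and stromal markers 8.44 to 8.95 and 11.02 to 11.73 (Col1a1 6.38). The part of RNA quality and of these cell markers in the result was not tested.

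**Figure D4:**
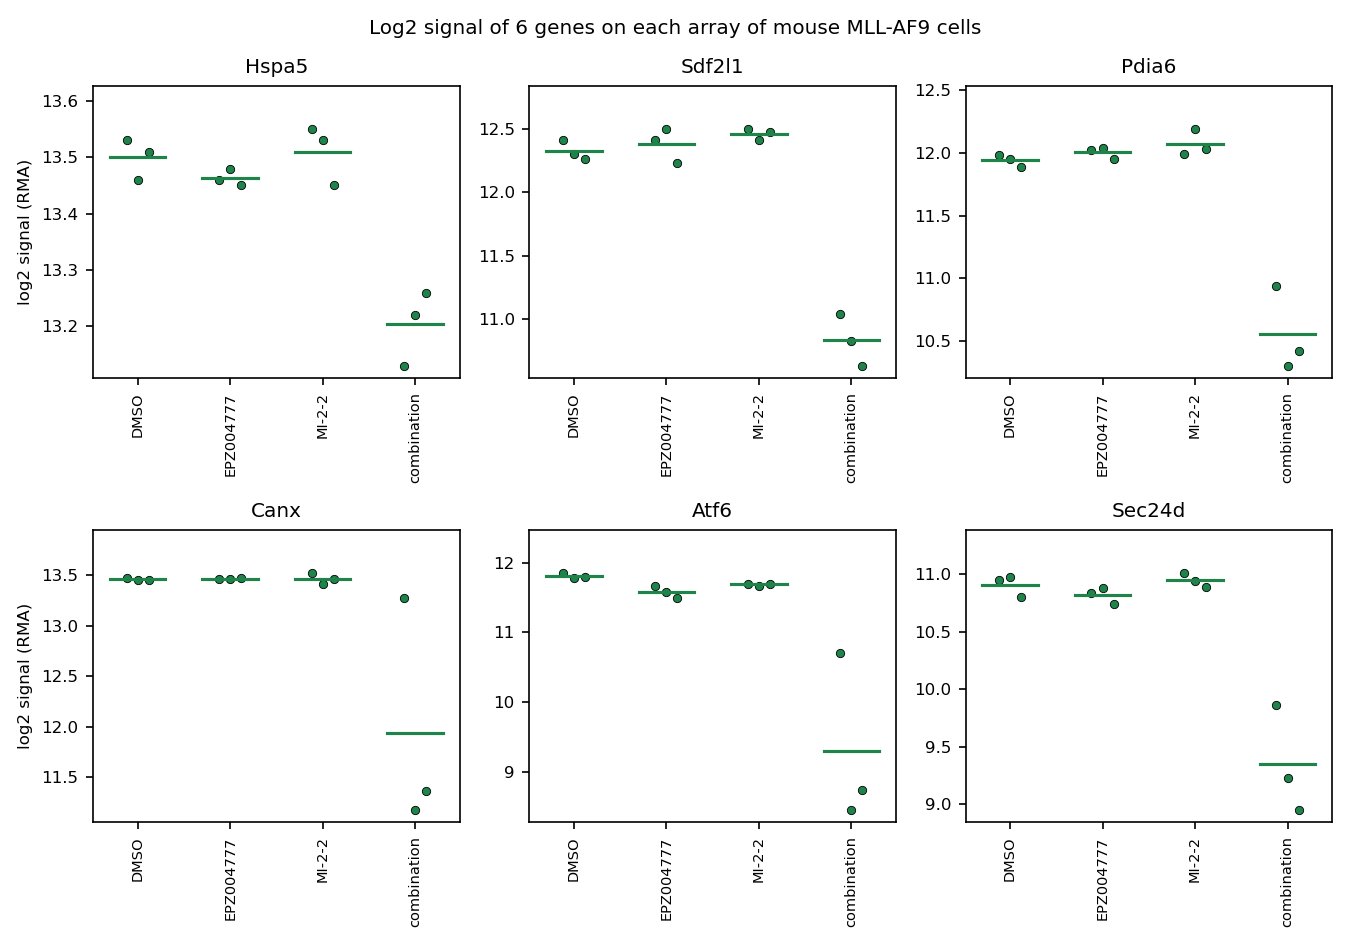
Log2 signal of 6 genes on each mouse MLL-AF9 array by treatment; points are arrays, lines are group means, and each panel has its own scale. The single compounds lie near DMSO, and the 3 combination arrays are lower and spread, with Atf6 at 10.71, 8.46 and 8.75.

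Whether a treatment changed the set differently in the KMT2A-rearranged lymphoid lines and in REH was tested in 1 fit over these lines (32 arrays), as the mean change of RS4;11 and SEM minus the change of REH. REH is the only line here without such a fusion, so the fusion cannot be told apart from other traits of REH. The spread in this test is that between arrays within lines, not between lines. Under the combination 13 of 33 genes were higher in this difference and 2 lower, against 10% and 10.6% of all genes, and the median was 0.24 against -0.02. HSPA5 differed by 1.01 (SE 0.17, adjusted p = 0.000109), SDF2L1 by 0.99 and SEC24D by 0.89, and among the others MANF by 0.74, CRELD2 by 0.67 and PDIA3 by 0.61, while EDEM1 (-0.78) and ATF6 (-0.36) differed the other way. Under MI-2-2 6 were higher and 1 lower (7.93% and 5.73% of all genes; medians 0.16 and 0.00), with SDF2L1 at 0.98, SEC24D at 0.80 and CRELD2 at 0.77. Under EPZ004777 3 were higher and none lower (2.49% and 2.77%; medians 0.22 and -0.02): ERN1 (0.74), DNAJC3 (0.44) and DNAJB9 (0.40). In REH, HSPA5 read 12.41, 11.78 and 12.41 on the DMSO arrays and fell by 0.73 under the combination. In RS4;11 its combination arrays (11.67, 11.67 and 11.80) lay within the DMSO range of 11.57 to 11.86. In SEM they read 11.67 and 11.81, against 11.21 and 11.15 under DMSO. REH DMSO enters every one of these differences. With its replicates 1 and 3 left out the counts were 2, 5 and 13 under EPZ004777, MI-2-2 and the combination. Without REH DMSO replicate 2 they were 10 under EPZ004777 and 13 under MI-2-2, and without REH DMSO replicate 3 they were 9 and 13. Under EPZ004777 the count was 1 without RS4;11 DMSO replicate 2, REH EPZ004777 replicate 1, REH EPZ004777 replicate 2 or REH DMSO replicate 1.

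The change in SEM minus that in RS4;11 was a comparison added after the data had been seen. Under the combination CRELD2 (0.57) and HERPUD1 (0.74) were higher and EIF2AK3 (-0.74) and EDEM1 (-0.49) lower in SEM, 2 and 2 genes against 6.29% and 6.5% of all genes. Under MI-2-2 none was called (4.1% and 2.59% of all genes), with 3 of 33 at an unadjusted p under 0.05, as were 2760 of all 14919 tested. Without REH DMSO replicate 1, an array that enters this comparison only through the shared spread, 11 were called under the combination and 1 under MI-2-2, and without RS4;11 DMSO replicate 3 or SEM DMSO replicate 3, 2 were called under the combination.

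Genes related to the response were counted in lists that do not overlap the set. The list named for the PERK and ATF4 arm lacks PERK itself (EIF2AK3), which is in the set. Since PERK is not the only eIF2alpha kinase, changes in this list are not read as a measure of PERK or of ER stress. In the list of 20 genes of the PERK and ATF4 arm, which holds ATF4, its partners and targets and the other eIF2alpha kinases, 14 fell in RS4;11 and 14 in SEM under the combination, with medians of -0.69 and -1.20, and 1, EIF2S1, rose in SEM (0.25). Over all genes 12.4% and 15.2% were called lower there. CHAC1, a glutathione-degrading enzyme and ATF4 target, fell by 2.07 in RS4;11 and 3.49 in SEM, TRIB3, a pseudokinase induced by ATF4, changed by -1.94 and -1.72, and ATF5, a transcription factor of this arm, by -0.94 and -3.30. Under MI-2-2, 12 fell in RS4;11 (median -0.56, with STC2 at -1.43 and CHAC1 at -1.38) and 10 in SEM (median -0.40, with ATF5 at -2.77 and CEBPB at -1.25), and none rose, against 6.84% and 8.47% of all genes called lower. EPZ004777 gave 1 lower call in RS4;11 (CEBPB, -0.35) and none in SEM, against 2.08% and 4.12% of all genes called lower. Without MI-2-2 replicate 1 or 3, whose arrays enter this comparison only through the shared spread, 5 genes were called lower in SEM under EPZ004777, and in RS4;11 the count was 0 without DMSO replicate 2 or 3 and 2 without EPZ004777 replicate 1. With the actin value as a covariate none of the SEM genes was called lower. TRIB3 in SEM, ATF5 in RS4;11 and EIF2S1 were named after their values were seen, as were DDIT3 and SLC7A11 in MOLM-13.

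In MOLM-13, 18 of the 20 genes of this arm fell under EPZ004777 (median -0.57), 5 fell and 3 rose under MI-2-2, and 16 fell and 1, SLC7A11, rose under the combination (median -0.64). Over all genes of MOLM-13 12.5%, 8.36% and 25.8% were called lower and 15.3%, 10.2% and 23.7% higher under EPZ004777, MI-2-2 and the combination. STC2, a secreted glycoprotein, fell by 1.83 and 2.12 under EPZ004777 and the combination, TRIB3 by 1.37 and 1.23, and DDIT3 (CHOP) by 0.88 and 0.63. In REH 19 were tested, and 2 fell under EPZ004777 (TRIB3 -1.06 and DDIT3 -0.53), none under MI-2-2 and 2 under the combination (TRIB3 -1.15 and DDIT3 -0.41), against 1.13%, 0.85% and 2.93% of all genes called lower. In the mouse cells 19 were tested, since EIF2S1 was not read there. Under EPZ004777 2 rose (Stc2 0.70 and Ddit4 0.54), with 4.22% of all genes called higher. That count was 3 without combination replicate 1, and 0 or 1 without any other array. None was called under MI-2-2, and under the combination 6 rose and 5 fell, against 28.5% and 36.2% of all genes, with Atf3 at 2.65 and Psat1 at -2.14. In MOLM-13 under MI-2-2, the count of 5 lower calls became 3 without DMSO replicate 1, DMSO replicate 3, MI-2-2 replicate 1 or MI-2-2 replicate 2. In REH the count of 2 became 1 under EPZ004777 without EPZ004777 replicate 1 or 3, and under the combination without any 1 of 8 arrays, among them DMSO replicates 1 and 3 and combination replicates 1 and 2. Without DMSO replicate 3, 3 genes of the list were called higher in REH under the combination, where none was with all arrays.

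**Figure D5:**
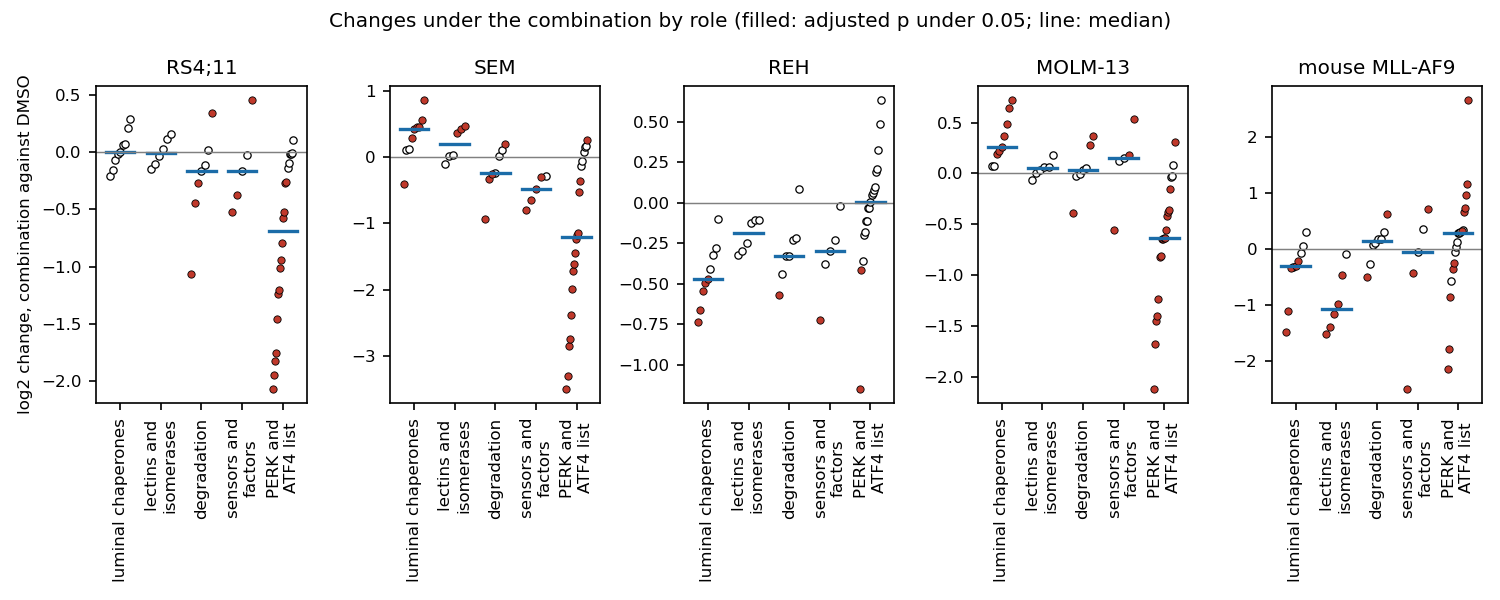
Log2 change against DMSO under the combination, by role of the gene and for the PERK and ATF4 list, in each model; filled points have an adjusted p under 0.05, horizontal marks are medians, and each panel has its own scale. In SEM luminal chaperones have a median of 0.42 and the PERK and ATF4 list one of -1.20, in MOLM-13 these are 0.26 and -0.64, and the translocation and phosphatase genes are not drawn.

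The remaining lists are given by their counts under the combination, beside which 23.7% of all genes were called in RS4;11, 29.6% in SEM, 7.03% in REH, 49.5% in MOLM-13 and 64.7% of all mouse genes. In MOLM-13 the 12 calls of 23 among other ER folding genes are near that share, as are the counts of some other lists here and in the mouse cells. No list was tested as a set, and nothing particular to a list is read from such counts. Of other ER folding genes 1 rose and 6 fell of 22 in RS4;11, 2 rose and 3 fell of 22 in SEM, 2 fell of 21 in REH and 5 rose and 7 fell of 23 in MOLM-13. ERO1B, an oxidase that recharges disulfide isomerases, rose by 0.50 in RS4;11 and 0.67 in SEM, FKBP14, a prolyl isomerase, fell by 0.59 in RS4;11, and DNAJC1, a membrane co-chaperone, fell by 1.00 in MOLM-13. Of 16 other ER degradation genes none was called in RS4;11, 3 rose (VCP, the segregase, by 0.53) and 2 fell in SEM, and in REH 1 fell, SELENOS (-0.93), and of 17 in MOLM-13 5 rose and 2 fell. Of 26 other translocation and glycosylation genes 1 rose in RS4;11, 2 rose and 3 fell in SEM, 3 fell in REH and 8 rose and 5 fell in MOLM-13. Of 18 other ER to Golgi transport genes none was called in RS4;11, 3 rose and 2 fell in SEM and in MOLM-13, and 1 fell in REH. Other regulators of the response gave 3 lower calls of 14 in RS4;11 and in SEM, 1 of 15 in REH (BHLHA15, a secretory transcription factor, -1.65) and 4 higher and 4 lower of 14 in MOLM-13. Chaperones of the cytosol and mitochondria, a list outside the ER, had 1 higher and 1 lower of 16 in RS4;11, 2 and 2 in SEM and 1 higher in REH, but 13 of 17 fell in MOLM-13 (median -0.36).

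In the mouse cells under the combination 19 of 24 other ER folding genes fell (median -0.95, with Rcn1, a luminal calcium-binding protein, at -3.41 and Txndc5, a disulfide isomerase, at -3.19), as did 19 of 25 other translocation and glycosylation genes (median -0.77), and none of either list rose. Of 19 other ER to Golgi transport genes 14 fell and 4 rose, of 17 degradation genes 6 and 4, and of 16 regulators 5 and 5. Cytosolic and mitochondrial chaperones fell in 12 of 18 (median -1.01), with none higher.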

How the data were processed

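Total RNA of 56 cultures was amplified with the Nugen Ovation method, labelled with biotin and hybridized to 44 human and 12 mouse Affymetrix arrays, per the labels' protocols. The deposited log2 signals per probe set were made by the authors with RMA (affy, R 3.0.2), per the submitters' processing notes, and were used as given. RMA shrinks differences of dim probe sets, and array data have no read depth, so the number of arrays limits the precision.

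Probe sets with exactly 1 symbol were kept (41097 of 54675 human, of which 41043 were updated by Entrez identifier to the GRCh38.p14 RefSeq table, and 34958 of 45101 mouse), and control probe sets were left out. For each gene the probe set of highest mean signal on its platform was used, and a gene was tested in a model where 2 or more arrays put it above the 40th percentile of that array. In 11 human and 5 mouse genes of the set that probe set ends in _s_at or _x_at and may bind other transcripts: HSP90B1, HYOU1, DNAJB9, SDF2L1, CALR, CANX, HERPUD1, SEL1L, CREB3L2, SEC61A1 and SSR1, and Hyou1, Calr, Canx, Syvn1 and Derl1.

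Each model was fitted in limma 3.58.1 under R 4.3.3 (lmFit, eBayes), with its 4 groups sharing 1 spread and p-values adjusted with Benjamini-Hochberg over all genes tested. Line differences came from 1 fit of 32 arrays. The code was tested on simulated data. Array values are given for HSPA5, XBP1 and, per comparison with DMSO, the 3 called genes with the largest change whose treated arrays all lie on 1 side of DMSO. Between treatments or lines the 3 largest calls are named, and from each other list up to 2 called genes. The design text calls the replicates biological. The members, lists and tests were chosen with earlier results of these data known. Alternatives changed the filter, normalization, choice of probe set, block, covariate, fit and arrays, and their effect is given at the end. Of the comparison lists, among others PDIA5, TXNDC5, SEC61G, KDELR2, TRAF2, HSPA1A, HSPA1B, HSPA8 and AHSA1 had no human probe set of 1 symbol, and Sec61g, Eif2s1, Srp54, Hsp90ab1 and Hsf1 no such mouse probe set. Promoters came from RefSeq (GRCh38.p14), and no mouse promoter or protein sequence was used here.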

Additional observations from a re-analysis of the deposited data

Results flagged for a closer look

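The treatment changes differed between lines by the test of the difference itself in 4 comparisons. For the mean of RS4;11 and SEM minus REH, 3 of 33 genes were called under EPZ004777, 7 under MI-2-2 and 15 under the combination, and for SEM minus RS4;11 4 were called under the combination, a comparison added after the data had been seen. Over all genes 5.27%, 13.7%, 20.7% and 12.8% were called in these 4 comparisons. The share of the set for SEM minus RS4;11 was 12.1%, so nothing particular to the set is read from that count. The largest differences from REH were 0.74 for ERN1, 0.44 for DNAJC3 and 0.40 for DNAJB9 under EPZ004777. Under MI-2-2 they were 0.98 for SDF2L1, 0.80 for SEC24D and 0.77 for CRELD2, and under the combination 1.01 for HSPA5, 0.99 for SDF2L1 and 0.89 for SEC24D. For SEM minus RS4;11 under the combination they were -0.74 for EIF2AK3, 0.74 for HERPUD1 and 0.57 for CRELD2. The REH DMSO arrays enter every difference from REH. HSPA5 read 12.41, 11.78 and 12.41 on these arrays and fell by 0.73 in REH under the combination. All groups held 2 or 3 arrays, too few for the check for single outlying arrays.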

How the results depend on the processing

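Counts below are genes of the set called, unless a gene is named. Leaving out 1 array gave, in RS4;11, 0 to 1 calls under EPZ004777, 4 to 11 under MI-2-2, 4 to 10 under the combination, 7 to 11 for the combination against EPZ004777 and 0 to 3 against MI-2-2. In SEM these ranges were 0 to 1, 2 to 10, 10 to 18, 11 to 17 and 0 to 3. In REH they were 1 to 8, 0 to 8, 3 to 14, 0 to 0 and 0 to 1, in MOLM-13 8 to 14, 2 to 4, 11 to 14, 3 to 11 and 11 to 13, and in the mouse cells 0 to 1, 0 to 1, 16 to 26, 17 to 22 and 16 to 22. For the difference from REH they were 1 to 10 under EPZ004777, 6 to 13 under MI-2-2 and 13 to 18 under the combination, and for SEM minus RS4;11 0 to 1 under MI-2-2 and 2 to 11 under the combination.

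The replicate numbers of the labels were not taken as pairs: the deviations of same-numbered arrays correlated at -0.36 to 0.24 in RS4;11, -0.21 to 0.22 in SEM, -0.47 to 0.48 in REH, -0.25 to 0.19 in MOLM-13 and -0.33 to 0.28 in the mouse cells, and 2 of 15, 2 of 10, 5 of 18, 3 of 18 and 9 of 18 pairs exceeded 0.1. With the replicate block the counts became 5 for RS4;11 under MI-2-2, 0 for its combination against MI-2-2, 4 and 11 for SEM under MI-2-2 and the combination, 1 for the SEM combination against MI-2-2, 1 for the difference from REH under EPZ004777 and 2 for SEM minus RS4;11 under the combination. The block moved no other count by over 1.5 times.

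With no filter the RS4;11 combination against MI-2-2 had 0 calls. With the mean of all probe sets SEM had 2 under EPZ004777 and REH 1 under MI-2-2. HSPA5 in the RS4;11 combination was then -0.28 (adjusted p = 0.0132), XBP1 in the SEM combination 0.067, and SEC24D in the SEM combination against EPZ004777 -0.0167. With the actin value as a covariate SEM had 0 calls under MI-2-2, 0 under the combination and 0 for the combination against EPZ004777, while XBP1 and HERPUD1 under the combination were 0.28 (SE 0.44) and 0.0923 (SE 0.47), against SE 0.09 for both without it. In 1 fit over 44 human arrays, the counts were 1 for the RS4;11 combination against MI-2-2, 14, 10 and 24 for REH under EPZ004777, MI-2-2 and the combination, 2 for the REH combination against MI-2-2, 7 and 3 for MOLM-13 under EPZ004777 and for its combination against EPZ004777, 6 for the difference from REH under EPZ004777 and 1 for SEM minus RS4;11 under MI-2-2. Lacking REH DMSO replicates 1 and 3, the counts were 1 for REH under EPZ004777, 1 under the combination and 1 for the combination against MI-2-2, and 1 and 13 for SEM minus RS4;11 under MI-2-2 and the combination. Lacking mouse combination replicates 2 and 3, they were 2 under EPZ004777 and 2 under MI-2-2, and Dnajb9 was 0.46 for the combination against EPZ004777. With 1 mouse array left out, Ppp1r15a under the combination ran from -0.29 to 0.29 and Dnajb9 from -0.25 to 0.21; neither was called with all arrays, and the sign of both turned without combination replicate 1. Where a value moved, the cause was not tested. Over the single genes, the alternatives kept direction and side of the threshold in 10194 values, lost the call in 344, gained one in 164 and changed sign in 8. With groups of 2 or 3 arrays, calls of small changes rest on few values.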
